A study of Mus musculus with 12 samples.

Results

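Cyp26b1, the enzyme that clears retinoic acid, and 8 further genes of the retinoic acid pathway were followed in mouse hearts. Some of the hearts were labelled as having a deletion of the glucocorticoid receptor directed to cardiomyocytes. The 9 genes were taken as the rows of the deposited table that carry these symbols, out of 24918 rows. They were chosen by measured values as well as by function, since earlier results of these data had put Cyp26b1 among the largest falls in males. Their genotype differences are therefore descriptions without a test. RNA of whole mouse hearts was sequenced in 12 libraries from untreated C57BL/6 mice aged 2 months, 3 libraries in each of 4 groups. All groups were homozygous for a glucocorticoid receptor gene (Nr3c1) flanked by loxP sites. The male and female floxed groups (GRloxP,loxP) carried no Cre, and the male and female cardioGRKO groups (GRloxP/loxPαMHCCre/+) also carried Cre under the α-myosin heavy chain promoter, which is active in cardiomyocytes. Deletion was thus directed to cardiomyocytes, and the receptor was not measured by cell type. An effect of Cre itself cannot be told apart from that of the deletion. The groups rest on the sample titles, because the genotype entry is wild-type throughout. Nothing in the labels states that libraries came from different animals. The p-values thus reflect only how far libraries of a group scatter, and that scatter may be technical.

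Retinoic acid is made from circulating retinol, which is oxidised to retinaldehyde and then, irreversibly, to the acid. The acid binds nuclear receptors that pair with retinoid X receptors on DNA and switch target genes on, and enzymes of the CYP26 family oxidise it to inactive products. In the heart the pathway is known for patterning the atria and the inflow tract in the embryo and for its activity in the epicardium.

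RefSeq start-site windows (300 bases, build GRCm38.p6) matched 7 of the 9 genes (not Rdh10 and Crabp2). The files used build mm9, so these sequences were matched by symbol and not by coordinate. A pair of stretches is shown, for the gene with the largest difference and for the gene that serves as a standard readout of the pathway. For Cyp26b1 the bases lie just before the first start annotated in GENCODE, at chr6:84593909-84594060 on the minus strand. That start lies upstream of the RefSeq start of the window. A match to TATAAA is in capitals, and its first base is 41 bases before the GENCODE start. For Rarb the bases hold its retinoic acid response element at chr14:16575506-16575535 on the minus strand, with the 2 arms of the element in capitals, the first of them starting 53 bases before the RefSeq start.
Cyp26b1: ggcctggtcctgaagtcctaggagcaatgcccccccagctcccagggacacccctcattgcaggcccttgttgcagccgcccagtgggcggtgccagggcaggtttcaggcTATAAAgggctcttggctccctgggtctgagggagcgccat
Rarb: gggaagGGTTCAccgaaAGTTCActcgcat
Both strands of the windows were searched. The Rarb element, GGTTCANNNNNAGTTCA, occurred in 0.00609% of 32851 windows and among the members in that of Rarb. The direct repeats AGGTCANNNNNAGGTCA and AGGTCANNAGGTCA each occurred in 0.00913% of windows, and in 0 of the 14 windows of members. The palindrome bound by the glucocorticoid receptor, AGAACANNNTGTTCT, occurred in 0.00913% of windows and in 0 of those 14. Its single arm, AGAACA, which overlaps the palindrome, occurred in 19.0% of windows and in 1 of the 14, a window of Dhrs3. TATAAA occurred in 13.6% of windows and in those of Cyp26b1 and Rbp4. A match is a description of these letters, and distant elements were not searched.

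Some features of the libraries bear on what follows. The values are the authors' log2 values, normalized between libraries, so depth cannot be read from them, and levels are not compared between genes because they are not divided by gene length. Nr3c1, the targeted gene, was 11.41 ± 0.015 (SD, n = 3) in male floxed and 10.85 ± 0.027 in male cardioGRKO libraries on the log2 scale. It was 10.74 ± 0.034 in the libraries labelled female floxed and 10.88 ± 0.029 in those labelled female cardioGRKO, which goes against the labels. Directions given for females therefore follow labels that the targeted gene does not bear out. All 10 cardiomyocyte markers listed were present in every library. The libraries labelled female floxed 1 and 2 also held transcripts of corneal epithelium, with Krt12, a corneal keratin, at 13.13 and 13.98 against at most 8.49 elsewhere. Markers of atrial muscle, summed on the linear scale, ranged from 30040 to 30483 in male floxed and from 135547 to 136322 in male cardioGRKO libraries. The female labels gave 106345 to 109845 for floxed and 51180 to 52244 for cardioGRKO. Nppa alone took 35.3% to 65.8% of each of these sums. The part of atrial muscle in the differences given below was not tested. In bulk RNA, fewer cells of a type and less RNA per cell cannot be told apart.

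Cyp26b1 (Entrez 232174) stood highest in male floxed hearts and lower in every other library. Its log2 values were 8.91, 8.91 and 8.96 in male floxed and 7.89, 7.89 and 7.83 in male cardioGRKO libraries. The female floxed label gave 8.13, 8.09 and 7.96, and the female cardioGRKO label 7.83, 7.85 and 7.83. No cardioGRKO library overlapped a floxed library of its sex. The gap was far wider in males, where all 3 floxed libraries lay above all 9 others.

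In males the Cyp26b1 difference was -1.06 log2 (SE 0.037), which leaves 48.0% of the floxed level. Only 2 of 14721 genes tested had a more negative difference. In females it was -0.23 (SE 0.037), or 85.5% of the level under the floxed label. Without the female floxed 1 and 2 libraries, which held epithelial transcripts, it was -0.13. The female difference minus the male difference was 0.83 (SE 0.052). Between floxed groups, the female label minus males came to -0.87 (SE 0.037). The cardioGRKO groups were close, at a difference of -0.032 (SE 0.037), and their libraries overlapped.

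**Figure D1:**
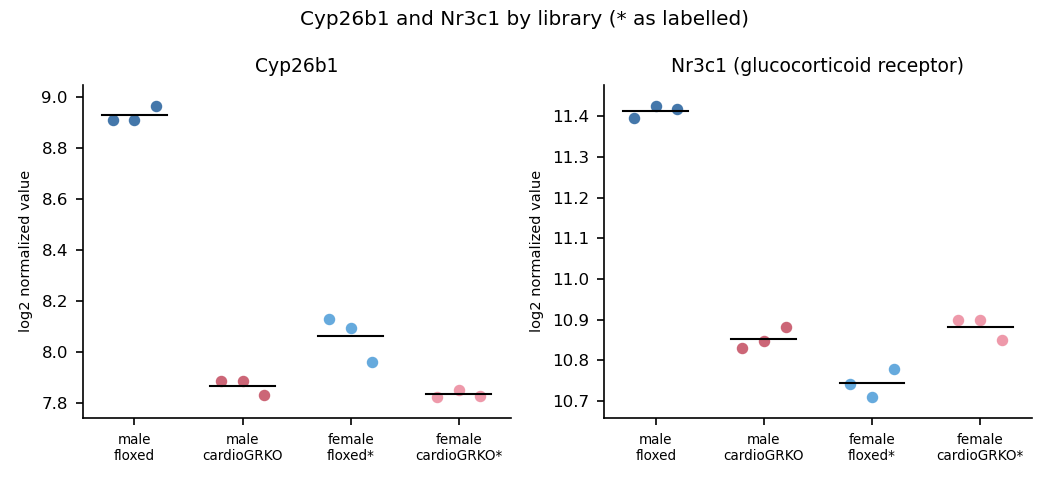
Log2 normalized values (vertical axes, not starting at 0) of Cyp26b1 and Nr3c1 by group; a point is 1 library and a horizontal line the mean of its group (n = 3). Male floxed libraries are the highest for both genes, and the groups labelled female are ordered oppositely for them.

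Male floxed libraries stood apart for Nr3c1 as well, at 11.40, 11.42 and 11.42 against 10.71 to 10.90 in the other 9. This separation was common in the table. Male floxed libraries lay above all others for 10.1% of genes tested and below all others for 7.63%. Over the 12 libraries Nr3c1 had a Pearson r of 0.91 with Cyp26b1, the 126th highest of 14720 genes. Over the 9 libraries other than male floxed the r was -0.94. The relation over all libraries thus rested on the male floxed group, and the sign turned without it.

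The genes whose profile was most like that of Cyp26b1 over the 12 libraries were Phyhd1, Slc25a4, Slc41a3, Drap1 and Art3, with r from 0.981 to 0.987. Slc25a4 is the main ADP/ATP carrier of heart mitochondria, and Art3 is an ADP-ribosyltransferase family member. Without male floxed libraries their r was 0.645 to 0.774. The most opposite profiles were those of P4hb, Atp11a, Doc2g, Sh3bgr and Metrn, with r from -0.995 to -0.985 and, without male floxed libraries, from -0.935 to -0.735. P4hb is protein disulfide isomerase. These r values are over the same libraries for every gene, and those of all 10 genes were nearer to 0 without the male floxed group but kept their sign. Among the 7 other members tested, r with Cyp26b1 ran from -0.77 for Aldh1a2 to 0.31 for Aldh1a1. Without male floxed libraries the r of Aldh1a2 turned to 0.30, and that of Aldh1a1 was 0.16.

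Endothelial markers moved in the direction of Cyp26b1 in males and against it in females. Of 10 listed markers, 0 were called higher and 9 lower in males, and 5 were called higher and 2 lower in females. None was at 0. Their summed linear values were 64706 to 64819 in male floxed and 58870 to 59803 in male cardioGRKO libraries. Under the female labels the sums were 57790 to 59326 for floxed and 60678 to 61909 for cardioGRKO. Markers of general cardiomyocytes and of smooth muscle and pericytes were also mostly lower in males. Each list had 1 called higher and 7 lower of 10. In females the cardiomyocyte list had 3 higher and 1 lower, and the other 3 higher and 4 lower. Shares of all genes tested, for these and later marker counts, were 12.8% higher and 14.6% lower in males. In females the shares were 15.2% and 14.0%. The part of these cell types in the Cyp26b1 difference was not tested.

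The enzymes that make retinoic acid showed small differences. Aldh1a2 (Entrez 19378), the main retinaldehyde dehydrogenase of the embryonic heart and of the epicardium, read 7.96, 7.99 and 7.98 in male floxed and 8.07, 8.09 and 8.08 in male cardioGRKO libraries. Female libraries read higher, with 8.19, 8.22 and 8.26 under the floxed and 8.21, 8.19 and 8.23 under the cardioGRKO label. Male groups did not overlap, and female groups did.

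The Aldh1a2 difference was 0.10 (SE 0.026) in males, a level 7.48% higher, and -0.011 (SE 0.026) in females. By sex, the female label stood 0.25 above males among floxed and 0.13 above among cardioGRKO libraries. Male floxed libraries were the lowest of all 12, the reverse of Cyp26b1. Markers of epicardium and mesothelium also differed. Of 10 listed, 6 rose and 0 fell in males and 0 rose and 8 fell in females, and none was at 0. Their summed linear values were 1395 to 1434 in male floxed, 1705 to 1730 in male cardioGRKO, 1650 to 1825 in female floxed and 1341 to 1359 in female cardioGRKO libraries. Upk1b, Krt19 and Bnc1 were highest in female floxed 1 and 2, which also held epithelial transcripts. Upk1b read 7.92, 8.27 and 6.93 under the female floxed and 6.72 to 6.78 under the female cardioGRKO label. The other markers that fell were not highest in those 2 libraries, such as Msln at 8.02, 8.11 and 8.13 under the female floxed label. The sums were higher with Aldh1a2 in male cardioGRKO libraries and lower in female cardioGRKO libraries, where Aldh1a2 overlapped between the groups. Their part in the Aldh1a2 difference was not tested.

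Aldh1a1 (Entrez 11668), a retinaldehyde dehydrogenase of many adult tissues, read 9.26, 9.29 and 9.32 in male floxed and 9.30, 9.31 and 9.37 in male cardioGRKO libraries. The female labels gave 9.26, 9.29 and 9.18 for floxed and 9.19, 9.21 and 9.13 for cardioGRKO. The groups of each sex overlapped. Its difference was 0.034 (SE 0.034) in males and -0.066 (SE 0.034) in females. Without the 2 libraries that held epithelial transcripts the female difference was 0.00063, leaving 1 library under the floxed label.

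Retinol and retinaldehyde are interconverted by Rdh10, which oxidises retinol, and Dhrs3, which reduces retinaldehyde back to retinol and is itself induced by retinoic acid. Dhrs3 (Entrez 20148) went opposite ways in the sexes. It read 11.47, 11.41 and 11.43 in male floxed and 11.28, 11.27 and 11.26 in male cardioGRKO libraries. The female labels gave 11.37, 11.38 and 11.39 for floxed and 11.55, 11.54 and 11.54 for cardioGRKO. Groups did not overlap in either sex. The 4 group means were separated from each other, with female cardioGRKO highest, then male floxed, female floxed and male cardioGRKO.

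The Dhrs3 difference was -0.17 (SE 0.020) in males, a level 89.1% of floxed, and 0.17 (SE 0.020) in females, a level 112% of floxed. The female difference was 0.16 without the female floxed 1 and 2 libraries. Rdh10 (Entrez 98711) showed no separation of groups. It read 7.67, 7.70 and 7.59 in male floxed, 7.72, 7.70 and 7.62 in male cardioGRKO, 7.58, 7.63 and 7.55 in female floxed and 7.58, 7.60 and 7.69 in female cardioGRKO libraries. Its difference was 0.029 (SE 0.038) in males and 0.040 (SE 0.038) in females. All 4 groups of Rdh10 overlapped their neighbours in the order of means.

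Rbp4 and Crabp2, carriers of retinol in blood and of retinoic acid in the cell, had low values. Rbp4 (Entrez 19662) ranged from 4.46 to 4.52 over the 12 libraries, with differences of 0.014 (SE 0.013) in males and 0.014 (SE 0.013) in females. Crabp2 (Entrez 12904) ranged from 1.35 to 1.37. It did not pass the filter on low values, which asked for log2 of 10 or more in at least 3 libraries, and is the member that was not tested. On the deposited scale, low values vary little between libraries, and differences of low genes may be understated.

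Of the retinoic acid receptors among the members, Rara (Entrez 19401) read 8.94, 8.97 and 8.96 in male floxed and 9.02, 9.03 and 9.07 in male cardioGRKO libraries, without overlap. The female labels gave 8.95, 9.01 and 9.01 for floxed and 8.95, 8.92 and 8.92 for cardioGRKO, with overlap. The Rara difference was 0.084 (SE 0.026) in males, a level 5.96% higher, and -0.061 (SE 0.026) in females. Rarb (Entrez 218772), at once a receptor and a direct target through the element shown above, overlapped in both sexes. It read 9.49, 9.49 and 9.58 in male floxed and 9.63, 9.51 and 9.50 in male cardioGRKO libraries. The female labels gave 9.54, 9.47 and 9.56 for floxed and 9.54, 9.47 and 9.48 for cardioGRKO. The Rarb difference was 0.024 (SE 0.037) in males, a level 1.67% higher, and -0.027 (SE 0.037) in females.

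**Figure D2:**
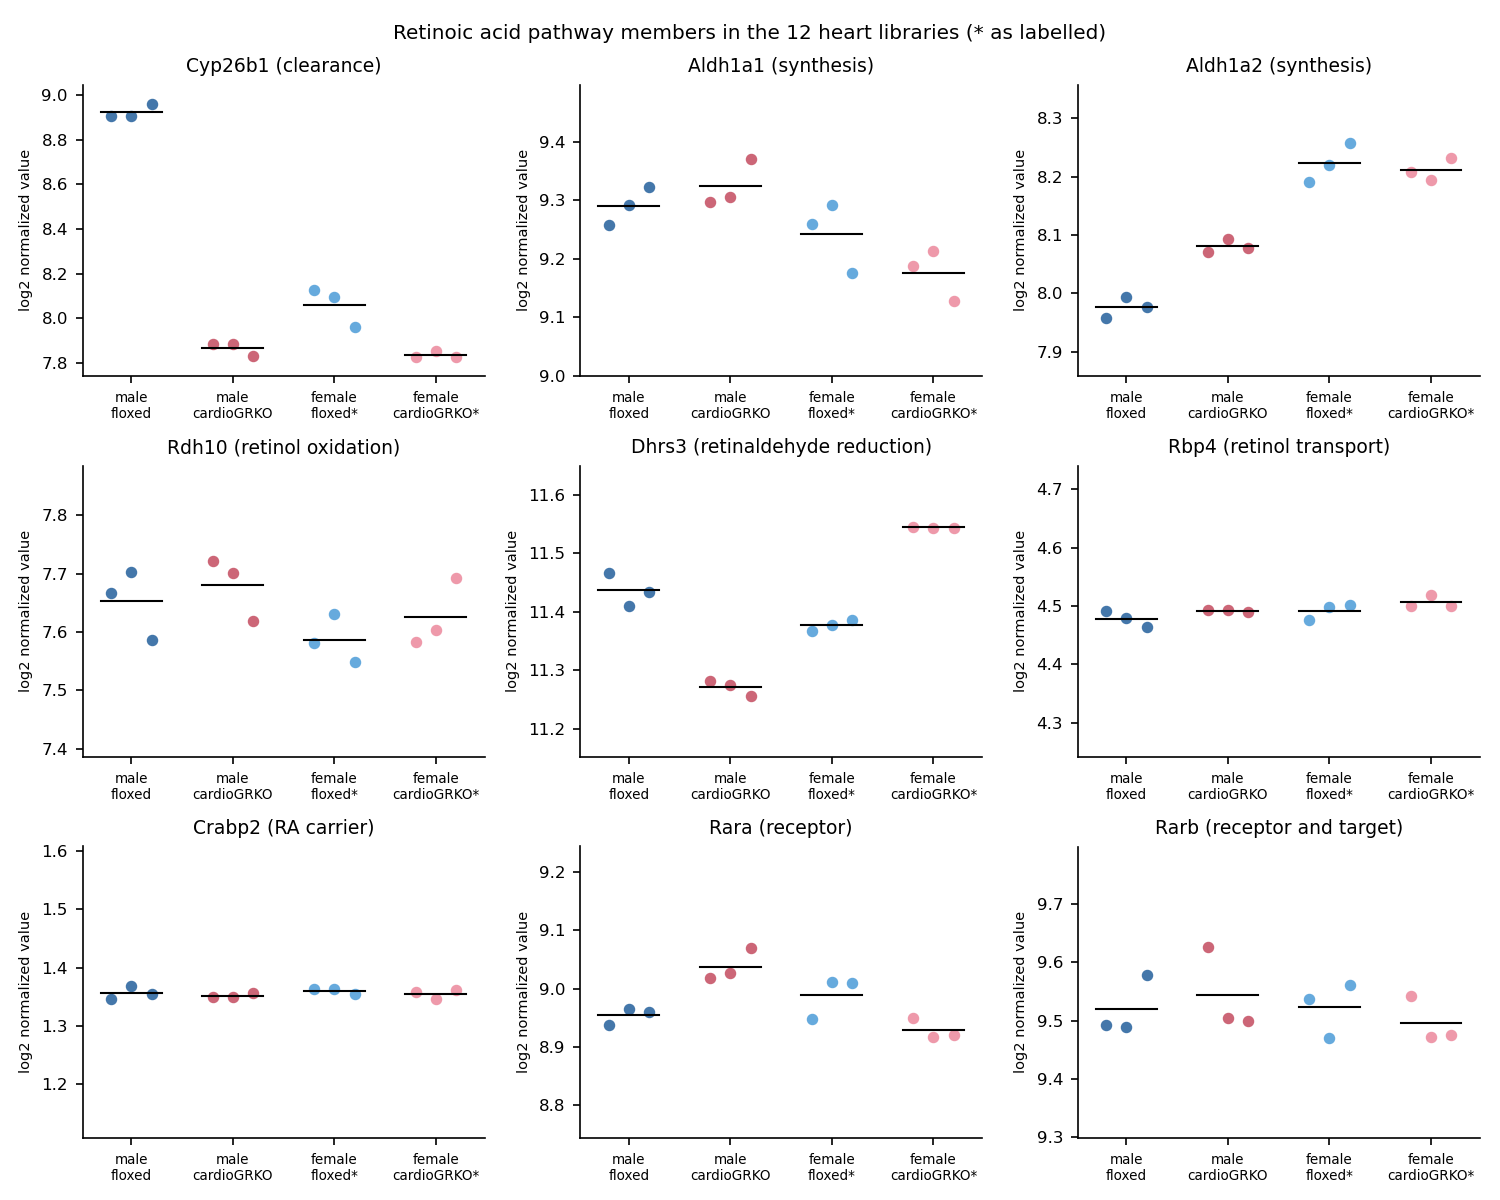
Log2 normalized values (vertical axes, with a scale of their own in each panel and not starting at 0) of the 9 members by group; a point is 1 library and a horizontal line the mean of its group (n = 3). Cyp26b1 spans 1.14 log2 over the libraries and the other members at most 0.30; Dhrs3 is lower in male and higher in female cardioGRKO libraries.

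Beside the whole table, the members were counted as follows. In males 4 of 8 members tested passed limma's test (adjusted p under 0.05 after Benjamini-Hochberg adjustment over 14721 genes), as did 27.4% of all genes tested. These were Aldh1a2 and Rara among higher genes (12.8% of genes tested) and Cyp26b1 and Dhrs3 among lower genes (14.6%). The same 4 were those without overlap between groups, which held for 41.4% of genes tested. In females 2 of 8 passed, against 29.3% of genes tested, Dhrs3 among higher genes (15.2%) and Cyp26b1 among lower genes (14.0%). The same 2 had no overlap between groups, as had 40.7% of genes tested. Nothing is read from these counts, because the rule named the same contrasts. The median absolute difference of the members was 0.059 in males and 0.050 in females, and that of all genes tested 0.041 and 0.043.

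**Figure D3:**
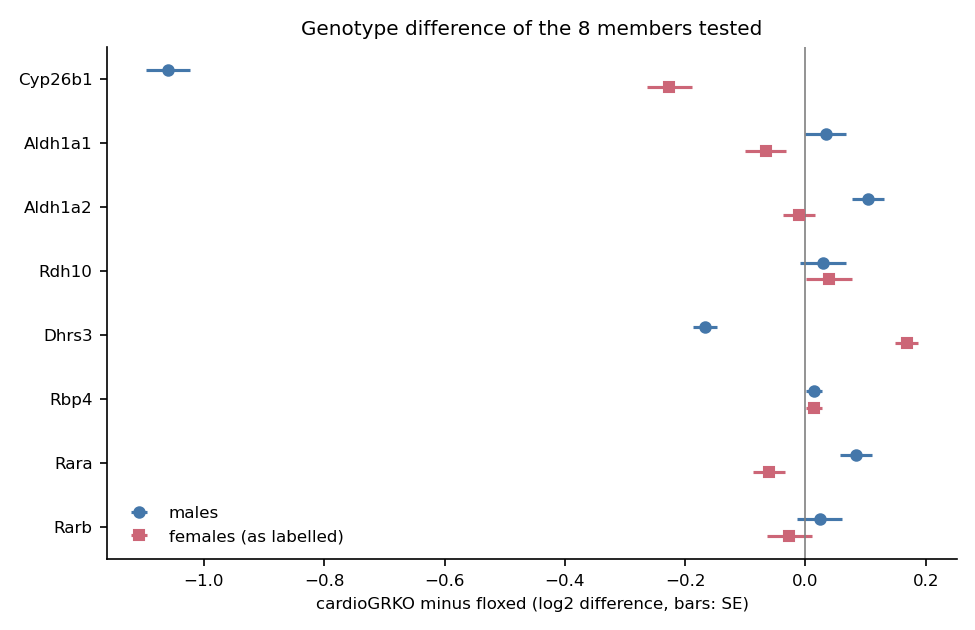
Difference in log2 value between cardioGRKO and floxed libraries (horizontal axis; bars are the SE of the model) for the 8 members tested, in males (circles) and females as labelled (squares). Cyp26b1 at -1.06 in males lies far from the others, and Dhrs3 has opposite signs at -0.17 and 0.17.

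Other genes of the pathway were listed by role, 84 in all, of which 80 were in the table and 65 were tested. In males 9 were called higher and 18 lower (limma, adjusted p under 0.05), or 41.5% of the 65, beside 27.4% of all genes tested. Under the female labels 15 were called higher and 17 lower, or 49.2%, beside 29.3%. The 17 include Adh7, Rbp2 and Aldh1a3, whose differences shrank without the libraries labelled female floxed 1 and 2, which held epithelial transcripts. For the counts by role below, the shares of all genes tested were 12.8% higher and 14.6% lower in males and 15.2% higher and 14.0% lower in females. Their median difference was -0.012 in males and 0.0046 in females, beside -0.0021 and -0.00037 for all genes tested. Of these genes 17 were called in both sexes, 15 of them in opposite directions, and Lrat and Hdac3 lower in both. Among all genes tested 1841 were called in both sexes, 1261 of them in opposite directions and 580 in the same direction. These splits rest on the direction of the female labels, which Nr3c1 goes against: read the other way round, 15 of the 17 would share their direction and 2 would not. The difference between the sexes itself was called for 27 of the 65, beside 31.3% of genes tested.

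The other CYP26 genes had values near or under the filter. Cyp26a1, the family member most readily induced by retinoic acid, ranged only from 3.83 to 3.92, with differences of -0.012 in males and -0.027 in females (limma, adjusted p = 0.66 and 0.23). The female difference passed the test without female floxed 2, at -0.048 (limma, adjusted p = 0.018). Cyp26c1 did not pass the filter on low values. Por, which passes electrons to these enzymes, differed by 0.0038 in males and 0.025 in females (limma, adjusted p = 0.96 and 0.69).

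Of the receptors outside the members, Rxra and Rxrg were called in opposite directions in the sexes. In males 3 of 4 were called lower. Rxrg, the retinoid X receptor of striated muscle, read 11.23, 11.21 and 11.24 in floxed and 10.96, 10.99 and 10.99 in cardioGRKO libraries, a difference of -0.25 (limma, adjusted p = 6.2e-08). Rarg differed by -0.23 (adjusted p = 0.00078) and Rxra by -0.11 (adjusted p = 0.0010). Under the female labels 3 of 4 were called higher, Rxra by 0.17 (limma, adjusted p = 3.0e-05), Rxrb by 0.10 (adjusted p = 0.0062) and Rxrg by 0.075 (adjusted p = 0.0093). Without the female floxed 1 and 2 libraries, which leaves 1 floxed library, Rxrg was at 0.065 and Rarg at 0.12. Calls are not given for that fit, because 1 library shows no spread, so it does not show that the female Rxrg call held. With all libraries Rarg was at 0.0046. The differences between the sexes were called for Rxrg, Rxra and Rarg.

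In transport and storage, 2 of 14 genes tested were called higher and 5 lower in males, and 7 higher and 4 lower under the female labels. Lpl, the lipase that releases fatty acids and retinol from lipoproteins, differed by -0.37 in males and 0.34 in females (limma, adjusted p = 1.6e-09 and 8.8e-09). Cd36, a fatty acid transporter, differed by -0.34 and 0.25, and Lipe, which also cleaves retinyl esters, by -0.30 and 0.18. Apoe, an apolipoprotein, went the other way, at 0.34 in males and -0.25 in females (limma, adjusted p = 1.0e-08 and 5.5e-07). Ces1d, a carboxylesterase, differed by 0.27 in females (limma, adjusted p = 4.8e-07). In males Ces1d was at -0.086 (limma, adjusted p = 0.015), and it was not called without male floxed 1 or male cardioGRKO 2 (0.076 and 0.093). Lrat, which esterifies retinol for storage, was lower in both sexes, by -0.082 and -0.095 (limma, adjusted p = 0.0051 and 0.0020). Adipocyte markers moved with Lpl and Lipe under the female labels. Of 8 tested, 7 were called higher and 0 lower in females and 2 higher and 4 lower in males, and none of the 9 listed was at 0. Their summed linear values were 25153 to 25949 in male floxed, 20418 to 20490 in male cardioGRKO, 20023 to 20880 in female floxed and 23221 to 23883 in female cardioGRKO libraries. Fabp4 took 91.2% to 95.4% of each of these sums, so they follow mainly that gene. Among the other markers, Cfd was 0.51 higher in males (limma, adjusted p = 1.8e-09) and Adipoq was at -0.045 (adjusted p = 0.20). The part of adipocytes in these differences was not tested.

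Of 13 further genes that interconvert retinol and retinaldehyde, 2 were called higher and 1 lower in males. Dhrs7, a short-chain dehydrogenase, rose by 0.35 (limma, adjusted p = 2.7e-08) and Rdh5, a retinol dehydrogenase, fell by 0.12 (adjusted p = 0.0041). Dhrs7c was 0.066 higher (limma, adjusted p = 0.034), a call lost without any of 4 single male libraries, male floxed 1 or 3 or male cardioGRKO 1 or 3. Under the female labels 2 were called higher and 3 lower. Dhrs4 rose by 0.12 (limma, adjusted p = 0.00032). Rdh13 was at 0.077 (limma, adjusted p = 0.026) and lost its call without female floxed 1 or 2 or female cardioGRKO 1 or 3. Dhrs7c was at -0.069 (limma, adjusted p = 0.025) and lost its call without female floxed 3 or female cardioGRKO 2 or 3.

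A few retinoid genes were high in the libraries with epithelial transcripts. Adh7, an alcohol dehydrogenase of surface epithelia that oxidises retinol, read 5.87, 6.42 and 5.17 under the female floxed and 5.17, 5.16 and 5.15 under the female cardioGRKO label. Its difference was -0.66 (limma, adjusted p = 0.011), and -0.016 without female floxed 1 and 2, which leaves 1 floxed library. Rbp2, a retinol carrier of the gut named here after its values were seen, read 4.78, 5.17 and 4.42 under the female floxed label, and its difference changed from -0.37 to -0.0040 without them. Aldh1a3, a retinaldehyde dehydrogenase, changed likewise from -0.16 (limma, adjusted p = 0.0060) to -0.042. Adh1, a retinol-oxidising dehydrogenase, read 9.26, 9.59 and 8.90, all above the 8.52, 8.49 and 8.52 of female cardioGRKO libraries. Its difference was -0.74 with female floxed 1 and 2 (limma, adjusted p = 5.9e-05) and -0.39 without them. In males Adh1 was at 0.17 (limma, adjusted p = 0.27), and a fit of the male groups alone called it (adjusted p = 0.00038), as did fits without female floxed 2 or 3 (0.044 and 0.015). Of 12 listed markers of corneal and stratified epithelium, 12 were called lower and 0 higher in females, and 0 either way in males. None was at 0, and their summed linear values ranged from 6249 to 41450 under the female floxed label and from 5764 to 6195 in the other groups. Perp, which read 12.16 to 12.46 over the 12 libraries, took 13.6% to 82.3% of these sums.

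**Figure D4:**
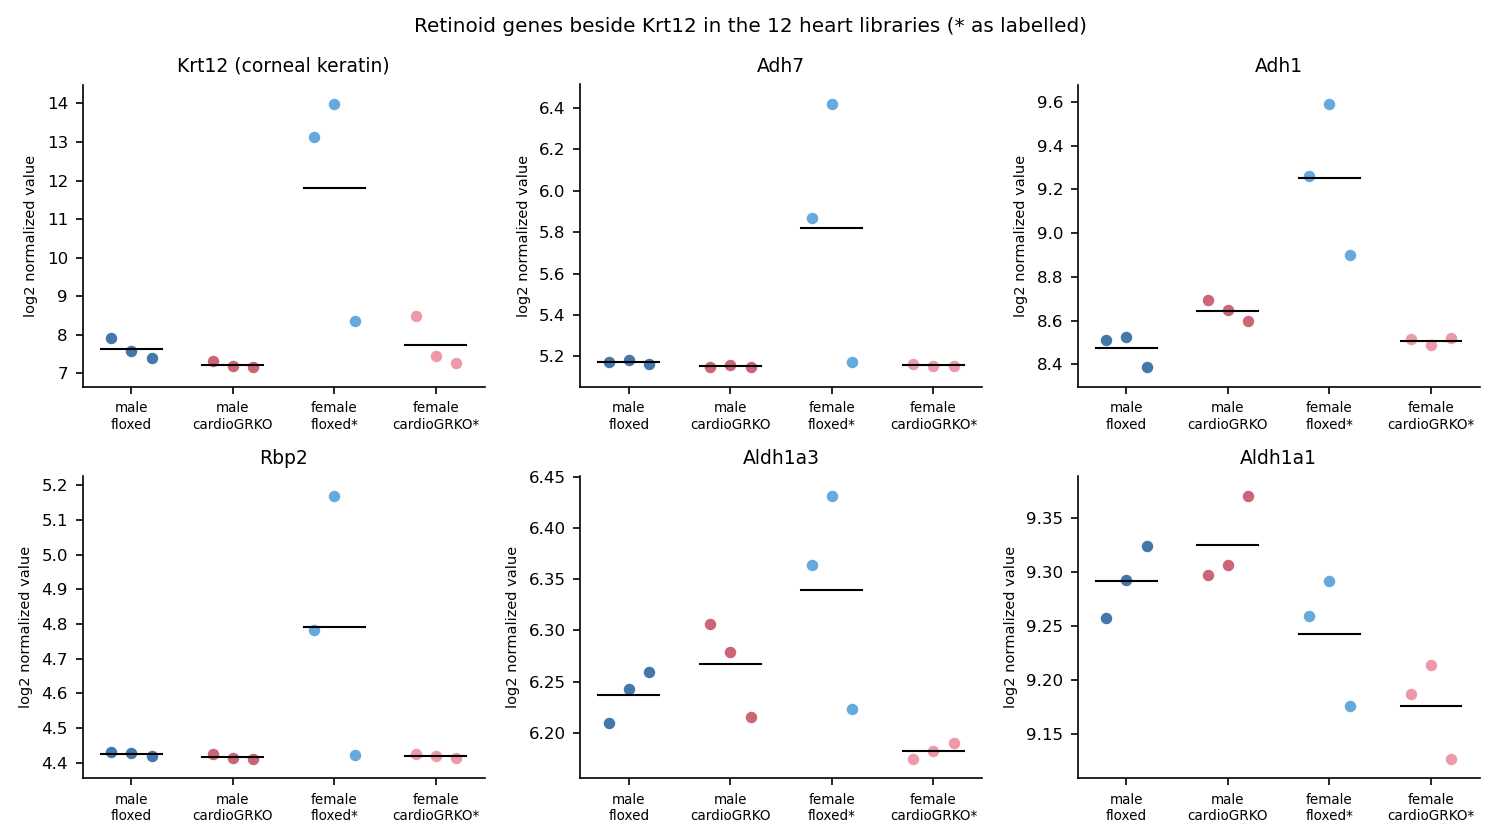
Log2 normalized values (vertical axes, with a scale of their own in each panel and not starting at 0) of Krt12 and 5 retinoid genes by group; a point is 1 library and a horizontal line the mean of its group (n = 3). Adh7 and Rbp2 are high only in the libraries labelled female floxed 1 and 2, where Krt12 is highest. Krt12 also reads 8.35 in female floxed 3 and 8.49 in female cardioGRKO 1. Adh1 is also raised in the third female floxed library, and Aldh1a1 is not.

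Other enzymes able to make retinoic acid also differed. Cyp1b1, a cytochrome P450 that can oxidise retinol and retinaldehyde, rose by 0.26 in males and fell by 0.15 in females (limma, adjusted p = 7.7e-07 and 0.00035). Aox1, an aldehyde oxidase, fell by 0.14 in males (limma, adjusted p = 0.00040) and was 0.066 in females (adjusted p = 0.059), where it passed the test without female cardioGRKO 3 (0.022). Fabp5, which carries retinoic acid in the cell, was at -0.069 in both sexes without a call (limma, adjusted p = 0.10 and 0.097). The female value passed without female floxed 1 (adjusted p = 0.033).

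Genes known to respond to retinoic acid gave calls in both directions. In males 5 of 19 tested were called higher and 4 lower, and under the female labels 2 higher and 7 lower. Tbx5, a transcription factor of atrial and conduction muscle, read 10.17, 10.15 and 10.15 in male floxed and 10.60, 10.58 and 10.62 in male cardioGRKO libraries. The female labels gave 10.48, 10.44 and 10.45 for floxed and 10.11, 10.10 and 10.13 for cardioGRKO. The Tbx5 difference was 0.45 in males and -0.34 in females (limma, adjusted p = 1.4e-10 and 7.8e-09). Rarres2, the adipokine chemerin, differed by 0.14 and -0.25 (limma, adjusted p = 0.00019 and 4.2e-07). Nr2f2, a transcription factor of atrial muscle and veins, differed by -0.24 in females (limma, adjusted p = 1.8e-05) and 0.11 in males (adjusted p = 0.013), the latter lost without male floxed 1 or 2 or male cardioGRKO 3.

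Ucp1, the uncoupling protein of brown fat, had the widest differences of the listed genes, at -0.48 in males and 1.66 in females (limma, adjusted p = 5.9e-08 and 1.1e-14). It is also on the adipocyte list. The adipocyte sums, mainly Fabp4, moved the same ways in both sexes, whereas Cfd and Retn were called higher in males. The part of adipocytes in the Ucp1 difference was not tested. Tgm2, a transglutaminase induced by retinoic acid, fell by 0.10 in males (limma, adjusted p = 0.0011), but was not called after quantile normalization (0.081). Hoxa5 was at 0.053 in females (limma, adjusted p = 0.046), a call lost without any of 6 single libraries, male floxed 2 or 3, female floxed 1 or 2 or female cardioGRKO 2 or 3. All 8 atrial muscle markers, of which Nr2f2 is also on the response list, rose in males and fell in females, and none was at 0. Their summed linear values, of which Nppa took 35.3% to 65.8%, were 30040 to 30483 in male floxed and 135547 to 136322 in male cardioGRKO libraries. The sums were 106345 to 109845 in female floxed and 51180 to 52244 in female cardioGRKO libraries. The part of atrial muscle in the differences of Tbx5 and Nr2f2, of the members and of the other pathway genes was not tested.

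Cofactors of the receptors that were called in males were all lower. In males 0 of 12 were called higher and 5 lower, among them the acetyltransferase Kat2b at -0.094, the corepressor Ncor1 at -0.088 and the coactivator Ncoa3 at -0.10 (limma, adjusted p = 0.0034, 0.0090 and 0.015). The Ncor1 call was lost without male cardioGRKO 1 (adjusted p = 0.057), and that of Ncoa3 without male floxed 3 or male cardioGRKO 2 (0.072 and 0.096). Under the female labels 1 was called higher, Kat2b at 0.076, and 3 lower, among them Crebbp at -0.13 and Hdac3 at -0.11 (limma, adjusted p = 0.014, 0.0080 and 0.0057). The Kat2b call was lost without female cardioGRKO 3 (adjusted p = 0.073). The male Hdac3 difference of -0.077 (limma, adjusted p = 0.039) was lost without male floxed 1 or 2 or male cardioGRKO 2 or 3.

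**Figure D5:**
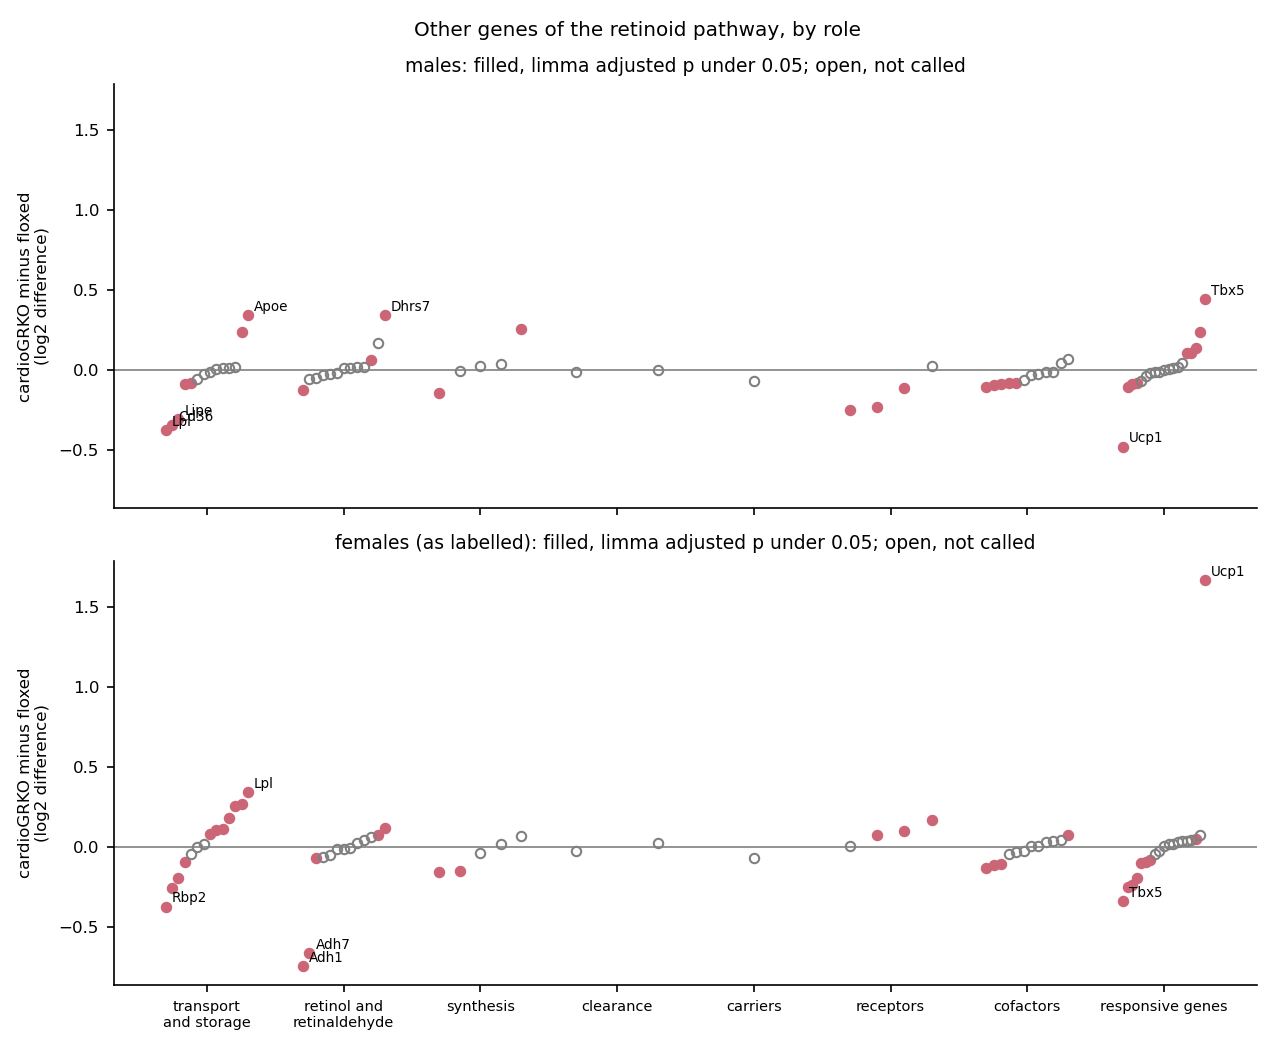
Difference in log2 value between cardioGRKO and floxed libraries (vertical axes, shared scale) of the 65 other pathway genes tested, by role (horizontal axis; a gene on several lists appears in each), in males (top) and females as labelled (bottom); filled points passed limma's test. In males 9 were called higher and 18 lower, in females 15 and 17, and Ucp1 in females lies at 1.66.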

How the data were processed

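Total RNA of mouse heart was sequenced in 12 libraries. Per the submitters' processing notes, the authors trimmed reads with Trim Galore, aligned them to mm9 with TopHat2, counted with HTSeq and normalized with DESeq2, with no versions given. The deposited log2 values (24918 genes, 12 libraries, lowest -2.20) are used as they are. A shrunken logarithm is possible but not stated, and depth cannot be recovered. Genes with log2 of 10 or more in at least 3 libraries (14721) entered a linear model (limma 3.58.1, R 4.3.3) with 1 mean per group (8 residual degrees of freedom), an intensity trend and Benjamini-Hochberg adjustment over all genes tested, called under 0.05. The fit was tested on simulated data. Columns were matched to titles by sex, genotype and number, reading control as floxed; 0 columns were left over, and no gene tested had identical values in 2 libraries of a group.

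The members and lists were chosen with earlier results of these data known. Of the other pathway genes, the text names up to 3 called genes per list, sex and direction, by smallest p, or otherwise the gene with the smallest p; some of these are not reported here. Rbp2, Por and Cyp26c1, and values of a named gene in the other sex, were added after values were seen. Named too are the 5 genes most like and 5 most unlike Cyp26b1 by Pearson r. Lists of other cell types were summed on the linear scale. The lists of endocardium (3 higher and 0 lower of 5 in males, 1 and 4 in females), fibroblasts (8 and 0 of 10, 2 and 5), hepatocytes (1 and 0 of 2 tested, 0 and 1) and macrophages (1 and 0 of 9, 3 and 1) are given here only.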

Additional observations from a re-analysis of the deposited data

Results flagged for a closer look

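Results were set aside here where the genotype difference itself differed between the sexes. For the other pathway genes named, values are the female minus the male difference on the log2 scale with limma's interaction test, adjusted over 14721 genes. For members, chosen on these contrasts, no test of it is given. The directions follow the female labels, which the level of Nr3c1 goes against.

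Dhrs3 was lower in all male and higher in all female cardioGRKO libraries than in the floxed libraries of the same sex. The difference between the sexes was 0.33 (SE 0.028), given as a description and not tested on independent data.

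A positive value means that cardioGRKO minus floxed was lower in males than in females. The difference was positive for Ucp1 at 2.14, Lpl at 0.72, Cd36 at 0.60, Lipe at 0.49 and Ces1d at 0.36 (limma, adjusted p from 1.8e-14 to 6.1e-07). It was positive too for the receptors Rxrg at 0.32, Rxra at 0.28 and Rarg at 0.23 (limma, adjusted p = 1.5e-07, 3.1e-06 and 0.0085). Smaller positive values were those of Aox1 at 0.21, Kat2b at 0.17, Dhrs4 at 0.17, Rdh13 at 0.13 and Ncor1 at 0.13 (limma, adjusted p from 0.00026 to 0.0075).

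The difference was negative for Adh1 at -0.91, Tbx5 at -0.79, Apoe at -0.60 and Cyp1b1 at -0.40 (limma, adjusted p from 8.0e-12 to 0.00016). It was also negative for Rarres2 at -0.39, Dhrs7 at -0.36, Nr2f2 at -0.35, Aldh1a3 at -0.19 and Dhrs7c at -0.13 (limma, adjusted p from 8.1e-08 to 0.016). Without the libraries labelled female floxed 1 and 2, which leaves 1 female floxed library, Adh1 was at -0.56 and Aldh1a3 at -0.071. Without the same 2 libraries Ncor1 was at 0.086 and Rdh13 at 0.12. Whether the calls of Adh1, Aldh1a3, Ncor1 and Rdh13 held is not judged from that fit, because 1 library shows no spread. With no filter on low values, the calls of Rarg and Aldh1a3 were lost (limma, adjusted p = 0.070 and 0.095).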

How the results depend on the processing

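Cyp26b1 kept its sign under all alternatives run, from -1.07 to -1.04 in males and from -0.28 to -0.19 in females when single libraries were left out. Without the libraries labelled female floxed 1 and 2, chosen because earlier results showed their epithelial transcripts, the female value was -0.13. Leaving those 2 out leaves 1 female floxed library, assumed to vary like the other groups. With no filter on low values, female pathway calls were 10 lower in place of 17. The cause of these shifts was not tested. When single libraries were left out, pathway calls ran from 7 to 11 higher and 13 to 18 lower in males, from 12 to 15 higher and 14 to 18 lower in females, and from 26 to 31 for the difference between the sexes. Members other than Cyp26b1 called in females ran from 1 to 2, with 2 without female floxed 1 or 3. Of 48 calls of named pathway genes in either sex, 33 held under all alternatives (other filters, quantile normalization, median centring, other moderation, fits of 1 sex, replicate block, libraries left out), and 15 were lost under at least 1. Replicate numbers gave no clear sign of pairing. Deviations of same-numbered libraries of a sex had r above 0.1 in 1 of 6 pairs, and 5 of 12 libraries correlated best with their own number. With 3 libraries a group, these values cannot exclude pairing. With the replicate number as a block, pathway calls were 8 higher and 19 lower in males, 14 and 17 in females and 27 between the sexes. Among the genes named here, the block added calls of Fabp5 in both sexes and removed that of Dhrs7c in males. The precision is limited by 3 libraries a group, and differences of genes with low values may be understated.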
